A study of Mus musculus with 24 samples.

Results

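The AMPA receptor subunit genes were Gria1, Gria2, Gria3 and Gria4, and the kainate receptor subunit genes Grik1, Grik2, Grik3, Grik4 and Grik5. These 9 of 49568 symbols in each library were taken by symbol from the counted genes. They were picked by gene family and not by their values, but with earlier results of these data known. All 9 passed the filter on low counts that left 20187 genes to test. Poly(A) RNA was sequenced from the hippocampus of 24 male mice on a C57BL/6J background, 6 in each of 4 groups, at 21 to 23 months of age. WTSH were wild-type mice in standard housing and WTEE were wild-type mice moved at 18 months to enriched cages with a running wheel, toys and ladders. KDSH and KDEE were the standard-housed and enriched MSK1 KD mice, which carried a point mutation in their own gene for the kinase MSK1 that inactivates its N-terminal kinase domain. The study left out WTSH 4, WTSH 7 and KDSH 6, so that 4 WTSH, 6 WTEE, 5 KDSH and 6 KDEE libraries, 1 per mouse, entered the comparisons. The MSK1 KD and WT mice were kept as separate lines, so line and genotype cannot be told apart, and enrichment includes voluntary running, which cannot be told apart from the other parts of the enriched cage. The question for the subunits was whether their transcript levels or proportions differed with housing, with MSK1 kinase activity, or with both together.

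AMPA receptors are tetramers of GluA subunits and carry most fast excitatory transmission in the hippocampus, and their number at synapses is scaled up or down as activity changes. GluA2, the product of Gria2, makes the channel impermeable to calcium once its transcript has been edited at the Q/R site of the pore loop. Kainate receptors are built from GluK1, GluK2 and GluK3, which can form channels by themselves, and from the high-affinity subunits GluK4 and GluK5, which need one of the former as a partner. They sit at mossy fibre synapses onto CA3 neurons, on interneurons and at presynaptic terminals. MSK1 acts downstream of BDNF and phosphorylates the transcription factor CREB and histone H3.

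The coding sequence around the Q/R site is given for the AMPA subunits and for Grik1 and Grik2, the kainate subunits that are also edited there, to show how alike the counted genes are. Each is a run of 60 bases of the GRCm38 coding strand, read across the transcript, and the capitals mark the genomic glutamine codon.
Gria1: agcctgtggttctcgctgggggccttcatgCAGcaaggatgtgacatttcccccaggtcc
Gria2: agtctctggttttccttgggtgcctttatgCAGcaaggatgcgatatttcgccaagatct
Gria3: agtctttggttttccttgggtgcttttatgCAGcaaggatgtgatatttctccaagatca
Gria4: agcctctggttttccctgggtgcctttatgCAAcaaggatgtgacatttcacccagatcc
Grik1: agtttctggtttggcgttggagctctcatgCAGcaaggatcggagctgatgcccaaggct
Grik2: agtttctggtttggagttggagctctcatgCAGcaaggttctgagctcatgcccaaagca

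The Gria2 codon lies in exon 11 of 16, on the minus strand at chr3:80706911-80706913, and encodes residue 607. Over the 60 bases, Gria3 matched Gria2 at 55 positions, Gria4 at 52 and Gria1 at 47, while Grik1 matched at 40 and Grik2 at 38. Gria4 alone of the 9 genes had CAA at this codon, and the others had CAG. Only read pairs with a unique alignment were counted, and the read counts give no measure of editing. The share of each subunit's exon bases that another annotated gene overlapped was at most 0.99% (Grik4).

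The 21 kept libraries held 27410239 to 71907130 read pairs on genes, with 13.1% to 21.3% of pairs on no gene or on more than one. In WTSH 4 and WTSH 7 that share was 49.2% and 50.2%, and in KDSH 6 it was 25.8%. Subunit depth ran from 24328 to 58632 read pairs per library for Gria1 and from 452 to 1130 for Grik1, so the counting error at the shallowest library was 0.64% and 4.7% of the value. One kept library stood apart, WTEE 10, and the WTEE levels, family sums and fold changes that it moves most are also given without it. Its sum over the 5 neuron markers Rbfox3, Snap25, Syt1, Slc17a7 and Camk2a was 6697 CPM (read pairs scaled to a common library total, with TMM), against 8705 to 10040 CPM in the other 20. All 5 were detected in each library. Camk2a was at 2313 CPM in WTEE 10, against 4059 to 4728 CPM in the other WTEE libraries. Snap25 was at 1800 CPM in WTEE 10 (1754 in KDSH 3) and Slc17a7 at 1239 CPM (1187 in KDSH 18), so neither was lowest there. Rps6ka5, the gene for MSK1, was at 23.3 ± 2.1 CPM (SD, n = 4) in WTSH and 24.1 ± 0.46 CPM (SD, n = 5) in KDSH, and a point mutation is not checked by a transcript count.

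Gria1 was the most abundant subunit transcript and Grik1 the least. Levels of different genes were compared as CPM per kilobase of the union of each gene's exons, over the 21 libraries. Gria1 was at 149 ± 15.98 CPM per kilobase (SD, n = 21), followed by Grik5 at 57.2 ± 4.9, Gria2 at 48.1 ± 6.8, Gria3 at 20.8 ± 1.9 and Gria4 at 11.9 ± 1.3. Grik4 was at 10.1 ± 1.2 CPM per kilobase, Grik3 at 9.60 ± 1.6, Grik2 at 4.03 ± 0.47 and Grik1 at 2.52 ± 0.20. Gria1 exceeded Grik5, Gria2 exceeded Gria3 and Gria3 exceeded Gria4 with no overlap between libraries. Grik3 was above Grik2, and Grik2 above Grik1, in each of the 21 libraries. The neighbours Grik4 and Grik3 kept their order in only 14 of 21 libraries, and Gria4 and Grik4 in 17.

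The place of Gria2 depended on the length it was divided by. Its exon union of 15548 bases is longer than its longest annotated transcript of 10371 bases. Dividing by the longest transcript put Gria2 at 72.1 ± 10.2 CPM per kilobase (SD, n = 21) and Grik5 at 72.8 ± 6.3, with Grik5 the higher in 9 of 21 libraries, against 17 of 21 by exon union.

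Within the AMPA family, Gria1 made up almost the same share in all groups. Of the summed AMPA level in CPM per kilobase, Gria1 held 64.9% ± 1.9 (SD, n = 4) in WTSH, 64.7% ± 1.7 (SD, n = 6) in WTEE, 64.7% ± 3.0 (SD, n = 5) in KDSH and 65.3% ± 1.5 (SD, n = 6) in KDEE. Gria2, the subunit that sets calcium permeability, held 21.2% ± 0.68, 20.5% ± 1.6, 21.4% ± 1.5 and 20.2% ± 1.1 in the same order. No pair of groups was free of overlap for the share of any subunit. Gria3 averaged 9.06% over all libraries and Gria4 5.23%.

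Grik5 made up most of the kainate family. It held 67.7% ± 2.3 (SD, n = 4) of the summed kainate level in WTSH, 70.2% ± 4.5 (SD, n = 6) in WTEE (68.5% ± 1.9 without WTEE 10, n = 5), 67.4% ± 2.2 (SD, n = 5) in KDSH and 68.4% ± 2.6 (SD, n = 6) in KDEE. Over the 21 libraries Grik4 averaged 12.1%, Grik3 11.5%, Grik2 4.85% and Grik1 3.03%. WTEE 10 gave both the highest Grik5 share, 78.7%, and the lowest Grik3 share, 6.18%. Dividing by the longest transcript instead moved Gria1 to 56.5% of its family and Gria2 to 24.9%, and Grik5 to 70.7% of its family, further for Gria1 and Gria2 than the group means lay apart.

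**Figure D1:**
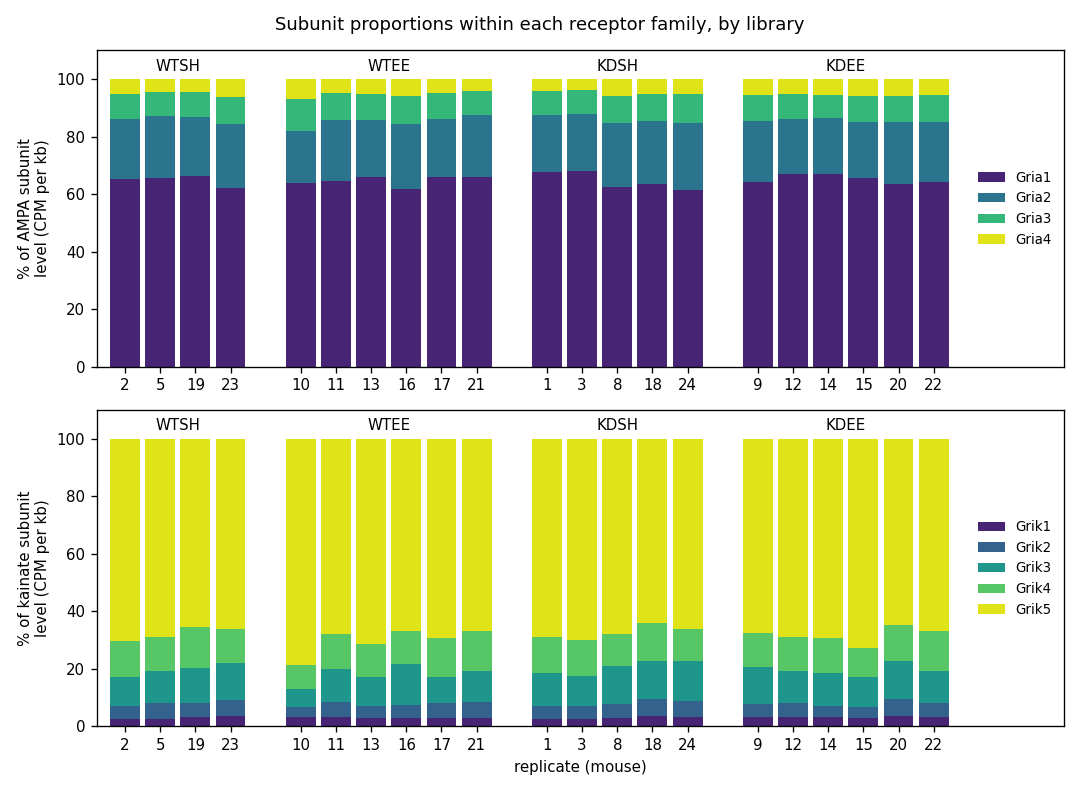
Each bar is 1 library, labelled by replicate number under its group, and its segments are the percent of the summed AMPA (top) or kainate (bottom) subunit level in CPM per kilobase of exon union. Gria1 and Grik5 were the largest segments in every bar, and the bar of WTEE 10 had the largest Grik5 segment, 78.7%.

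The summed AMPA level was 239 ± 6.9 CPM per kilobase (SD, n = 4) in WTSH and 221 ± 35.5 (SD, n = 6) in WTEE, or 233 ± 21.4 without WTEE 10 (n = 5). It was 247 ± 7.7 CPM per kilobase (SD, n = 5) in KDSH and 220.1 ± 16.01 (SD, n = 6) in KDEE. The summed kainate level lay between 81.7 and 85.5 CPM per kilobase in all 4 groups. The ratio of the sums was 2.81 ± 0.24 in WTSH, 2.70 ± 0.43 in WTEE (2.82 ± 0.35 without WTEE 10), 2.91 ± 0.30 in KDSH and 2.69 ± 0.30 in KDEE, differences smaller than the SD within the groups.

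Gria1 and Gria2 encode the main subunits of the receptors of CA1 synapses. Gria1 was at 905, 959.6, 969.7 and 917 CPM in the WTSH mice and at 1024, 1049, 885, 948 and 917 CPM in the KDSH mice. In WTEE its lowest, median and highest values were 616, 869.7 and 1023 CPM, and in KDEE they were 802, 866 and 932 CPM. All but 2 of the 6 KDEE libraries lay below every KDSH library, while the WTEE values spread on both sides of the WTSH range.

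Gria2 was at 740.2, 801, 779 and 841 CPM in WTSH and at 773, 786, 805, 849.6 and 892 CPM in KDSH. Its lowest, median and highest values were 445, 767 and 856 CPM in WTEE and 612, 680.0 and 815 CPM in KDEE. In KDEE, 5 of 6 libraries lay below every KDSH library and the sixth lay inside their range. The lowest WTEE value was again WTEE 10, the lowest of all 21 libraries, and the WTEE mean was 709 ± 147.6 CPM (SD, n = 6) with it and 762 ± 78.7 CPM (n = 5) without it.

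Gria3 followed Gria2 at a lower level. It was at 209 ± 15.7 CPM (SD, n = 4) in WTSH, 202 ± 19.6 (SD, n = 6) in WTEE, 218 ± 15.9 (SD, n = 5) in KDSH and 194 ± 20.3 (SD, n = 6) in KDEE. Gria4, known for its expression in interneurons, was at 75.6 ± 12.5, 72.3 ± 5.3, 76.0 ± 10.1 and 77.0 ± 6.6 CPM in the same order. For both genes the groups overlapped in each comparison.

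Grik1, Grik2 and Grik3 encode the subunits that form kainate channels by themselves. Grik2, whose product is part of mossy fibre receptors, was at 52.4, 64.1, 53.2 and 59.5 CPM in WTSH and at 53.8, 56.2, 55.9, 58.0 and 59.2 CPM in KDSH. Its lowest, median and highest values were 36.4, 53.8 and 56.1 CPM in WTEE and 45.8, 49.9 and 61.3 CPM in KDEE. Of the 6 KDEE libraries, 5 lay below every KDSH library and 1 lay above all of them.

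Grik3 had the widest spread of the 9 genes, with a within-group SD of 0.27 on the log2 CPM scale, and Grik1 the narrowest, 0.11. Grik3 was at 88.6 ± 6.5 CPM (SD, n = 4) in WTSH, 76.6 ± 22.2 (SD, n = 6) in WTEE (83.5 ± 16.1 without WTEE 10, n = 5), 95.9 ± 9.3 (SD, n = 5) in KDSH and 85.9 ± 8.1 (SD, n = 6) in KDEE. WTEE held both its lowest value of all libraries, 42.0 CPM in WTEE 10, and its highest, 110.4 CPM in WTEE 16. Grik1 was at 16.98 ± 2.3, 16.3 ± 0.76, 16.6 ± 1.0 and 17.8 ± 0.98 CPM in the same order of groups, and 4 of the 6 KDEE libraries lay above every KDSH library.

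Grik4 and Grik5 encode the high-affinity partners. Grik4 was at 64.3 ± 4.9 CPM (SD, n = 4) in WTSH, 57.9 ± 10.2 (SD, n = 6) in WTEE (61.8 ± 3.7 without WTEE 10, n = 5), 61.3 ± 7.0 (SD, n = 5) in KDSH and 58.6 ± 4.0 (SD, n = 6) in KDEE. Grik5 was at 299 ± 27.9, 296 ± 14.8, 298 ± 37.3 and 291 ± 27.4 CPM in the same order. The Grik5 group means lay closer to each other than the SD of any group.

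**Figure D2:**
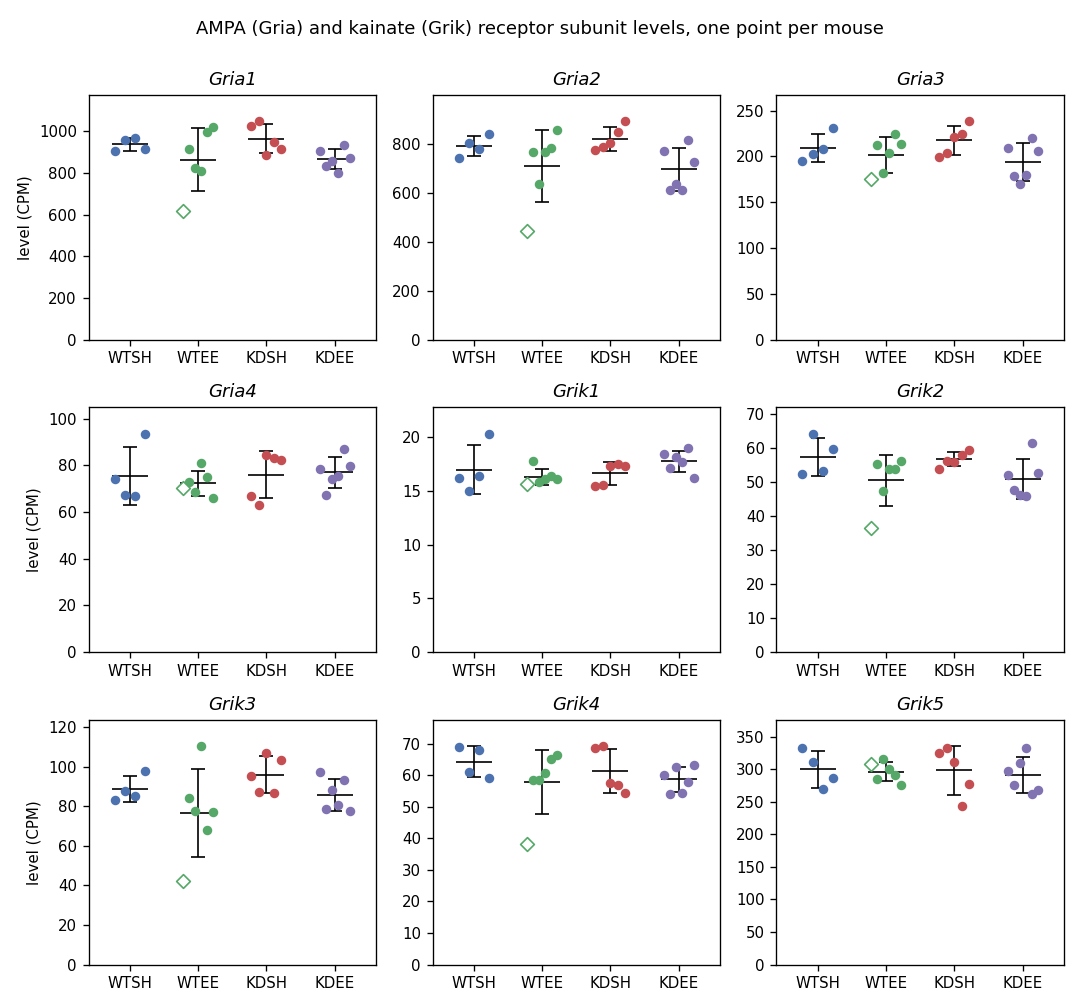
Levels in CPM (axis from 0) of the 9 subunits, 1 point per mouse, with horizontal marks and bars for the mean and SD of each group (WTSH n = 4, WTEE n = 6, KDSH n = 5, KDEE n = 6). The open diamond is WTEE 10, which lay lowest of all libraries for Gria1, Gria2, Grik2, Grik3 and Grik4, and no 2 groups were free of overlap in any panel.

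No subunit passed the test for housing in either genotype. In bulk tissue, fewer cells that express a subunit and less of its RNA per cell cannot be told apart. A change was called at an adjusted p under 0.05 with a log2 fold change beyond 0.38, about 1.3-fold, in edgeR's quasi-likelihood test over 20187 genes. In WTEE against WTSH 0 of 9 subunits were called and 0 had an unadjusted p under 0.05, where 0% and 6.55% of all genes did. In KDEE against KDSH 0 of 9 were called and 1 had an unadjusted p under 0.05, where 0% and 11.6% of all genes did. DESeq2 also called 0 of 9, beside 2 of 37779 genes (0.00529%) in WTEE against WTSH and 14 of 16167 (0.0866%) in KDEE against KDSH. Here and below, DESeq2 shares are of the genes to which it gave an adjusted p, a number that differs between contrasts. No subunit had groups free of overlap, against 0.986% of all genes in WTEE against WTSH and 1.84% in KDEE against KDSH.

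The direction was nevertheless mostly lower with enrichment. In WTEE against WTSH all 9 log2 fold changes were below 0, from -0.21 for Grik3 to -0.02 for Grik5, with a median of -0.12 beside 0.01 over all genes. In KDEE against KDSH 7 of 9 were below 0, with Gria2 the lowest at -0.24 ± 0.12 (SE) and an adjusted p of 0.443 by edgeR, and Grik1 the highest at 0.10 ± 0.07 (SE). Gria3 was the subunit with an unadjusted p under 0.05, at -0.16 ± 0.08 (SE) and an adjusted p of 0.423 by edgeR. Signs of 9 genes measured in the same libraries are not independent of each other. The sum over 4 genes that collect ribosomal and other structural RNA reads, Rn18s-rs5, Mir6236, Gm23935 and Lars2, was 3549 to 13914 CPM in the WTEE libraries, highest in WTEE 10. In WTSH it was 343, 479, 1174 and 25557 CPM, the last in WTSH 2. Its r on the log2 scale across the 21 libraries, group means removed, was -0.50 for Gria3 and -0.43 for Grik2, and its part in the subunit values was not tested.

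With the genotypes averaged, Gria2 and Grik2 had the smallest p-values of the subunits. Gria2 was at a log2 fold change of -0.20 (95% interval -0.38 to -0.02, edgeR unadjusted p = 0.0341, adjusted p = 0.247). Grik2 was at -0.17 (95% interval -0.31 to -0.02, edgeR unadjusted p = 0.0238, adjusted p = 0.236). These 2 of 9 with an unadjusted p under 0.05 stand beside 18.9% of all genes in that contrast, 9.13% in the lower direction, and 0 of 9 were called, where 0.00495% of all genes were (0 of 9 beside 0.233% by DESeq2). Gria1 was at -0.14 ± 0.07 (SE), Grik3 at -0.18 ± 0.11, Gria3 at -0.11 ± 0.06 and Grik4 at -0.11 ± 0.08. Gria4, Grik1 and Grik5 were at -0.02, 0.02 and -0.03, within 1 SE of 0.

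No subunit passed the test for genotype in either housing. In KDSH against WTSH 0 of 9 were called and 0 had an unadjusted p under 0.05, where 0% and 1% of all genes did, and the log2 fold changes ran from -0.07 for Grik4 to 0.11 for Grik3. In KDEE against WTEE 0 of 9 were called and 0 had an unadjusted p under 0.05, where 0% and 4.99% of all genes did. The values there ran from -0.06 for Gria3 to 0.17 for Grik3, and Grik1 was at 0.12 ± 0.07 (SE). DESeq2 called 0 of 9 in both, beside 0% of all genes in KDSH against WTSH and 0.438% in KDEE against WTEE. Groups were free of overlap for 0 of 9 subunits, against 0.644% of all genes in KDSH against WTSH and 0.624% in KDEE against WTEE.

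The intervals bound how large a difference these data leave room for. In KDSH against WTSH and in KDEE against WTEE the 95% interval lay inside ±0.38 on the log2 scale for 8 of 9 subunits, all but Grik3. With housing averaged, MSK1 KD against wild type, all 9 intervals lay inside ±0.38 and the values ran from -0.03 for Grik4 to 0.14 for Grik3, with 0 of 9 called beside 0% of all genes by edgeR and by DESeq2, and 0 of 9 at an unadjusted p under 0.05 beside 1.9%. For the effect of housing the intervals were inside for 5 of 9 subunits in wild-type mice and 7 of 9 in MSK1 KD mice, so a 1.3-fold decrease of Gria2 or Grik3 is not outside them in either genotype.

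The effect of housing was not shown to differ between the genotypes for any subunit. The interaction, (KDEE - KDSH) minus (WTEE - WTSH) on the log2 scale, ran from -0.11 for Gria3 to 0.15 for Grik1. Of the 9, 0 were called and 0 had an unadjusted p under 0.05, where 0% and 3.26% of all genes did, and DESeq2 called 0 of 9 beside 0.0762% of all genes. The smallest adjusted p, by edgeR, was 0.9999.

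**Figure D3:**
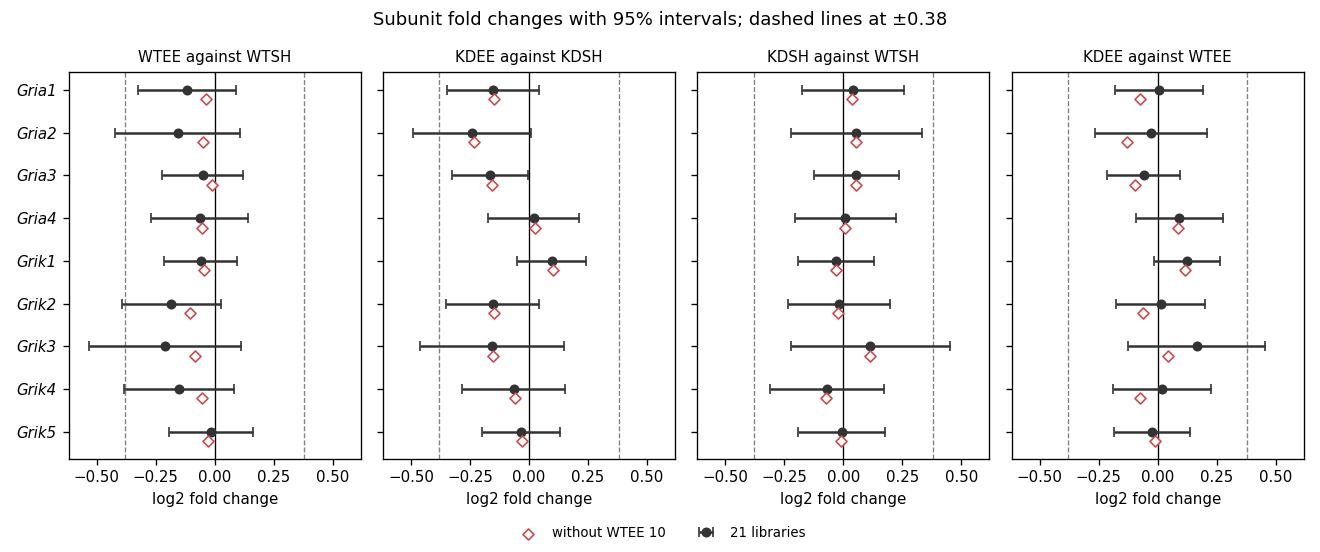
Filled points are log2 fold changes of the 9 subunits in 4 comparisons with 95% intervals from edgeR, open diamonds the same values without WTEE 10, and dashed lines mark ±0.38. No point lay beyond a dashed line, and in WTEE against WTSH the diamonds lay closer to 0 than the points for 8 of 9 subunits.

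The lower values in WTEE rested largely on WTEE 10. It was the lowest of the 21 libraries for Gria1 (616 CPM, others 802 to 1049), Gria2 (445, others 612 to 892), Grik2 (36.4, others 45.8 to 64.1), Grik3 (42.0, others 67.9 to 110.4) and Grik4 (38.1, others 53.9 to 69.1). It was not extreme for Gria4, Grik1 or Grik5, which ranked 8, 4 and 13 from the lowest. The same library was lowest in the summed markers of neurons, dentate granule cells, astrocytes, oligodendrocyte precursors and thalamus. It was highest in those of CA3 and endothelium, and its choroid plexus sum, 5302 CPM, ranked 19 of 21 from the lowest. Within some lists the genes went opposite ways against the other WTEE libraries. Among CA3 markers Bok was higher (124.8 CPM, others at most 105.4) and Cpne4 lower (77.4, others at least 86.98). Among endothelial markers Cldn5 was higher (82.6, others at most 38.7) and Flt1 lower (36.95, others at least 49.4). The astrocyte marker Aldh1l1 was higher (74.3, others at most 60.4) although its list had the lowest sum. The part of these markers in the subunit values was not tested.

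Without WTEE 10 the median log2 fold change of the 9 subunits in WTEE against WTSH was -0.05, and the range was -0.10 to -0.01. Gria2 then stood at -0.05 in WTEE against WTSH and at -0.23 in KDEE against KDSH, with an adjusted p of 0.125 by edgeR in the latter. In KDEE against KDSH the fit without this library had 3 of 9 subunits at an unadjusted p under 0.05, Gria1, Gria2 and Gria3, in place of 1, while the share of all genes went from 11.6% to 22.1%. WTEE 10 is in neither of these groups, but the fit estimates 1 spread over all groups. Gria2 there went only from -0.24 to -0.23, while its SE went from 0.12 to 0.08. With the genotypes averaged, Gria2 was at -0.14 and Grik2 at -0.13 without this library. The interaction without it ran from -0.18 to 0.15, with 0 of 9 called.

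Markers of other cell types moved in KDEE against KDSH, where the subunits were mostly lower. All 6 choroid plexus markers, Ttr, Folr1, Kcnj13, Tmem72, Clic6 and Kl, were higher with an unadjusted p under 0.05, where 11.6% of all genes had one. Their sum ran from 24.9 to 104 CPM in KDSH and was 9679 and 2668 CPM in KDEE 12 and KDEE 14 and 85.6 to 115 CPM in the other 4 KDEE libraries. Of the 5 oligodendrocyte markers 4 were higher with an unadjusted p under 0.05, and their sum ran from 5086 to 7285 CPM in KDSH and from 6072 to 7713 CPM in KDEE. The summed markers of oligodendrocyte precursors ran from 109 to 115.2 CPM in KDSH and from 115.3 to 129 CPM in KDEE, with 1 of 3 at an unadjusted p under 0.05. Those of interneurons ran from 875 to 925 CPM in KDSH and from 873 to 1077 CPM in KDEE, with 0 of 8. All 3 pituitary markers, Gh, Prl and Pomc, were lower with an unadjusted p under 0.05, largely through 1 library, KDSH 8. Their sum was 241 CPM in KDSH 8, 0.83 to 8.2 CPM in the other KDSH libraries and 1.2 to 2.1 CPM in KDEE. No marker of these lists was at 0 in all libraries, none was called, and 0 of 5 neuron markers had an unadjusted p under 0.05. The part of these markers in the subunit values was not tested.

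Some subunits varied together from mouse to mouse. Pearson's r between log2 CPM values was computed across the 21 libraries after the group means were removed, as a description, since the points share libraries, depth and scaling. Gria2 and Grik2 had the highest r, 0.94 (Spearman's rho 0.89; r = 0.86 without WTEE 10), followed by Gria1 and Grik4 at 0.86 (0.62 without it) and Gria2 and Gria3 at 0.82 (0.90 without it). Gria4 and Grik1 had r = 0.74, also 0.74 without WTEE 10. Both also went with Gria3, Gria4 at 0.63 (0.66 without WTEE 10) and Grik1 at 0.54 (0.53 without it). Grik5, in contrast, ran against Gria3, with r = -0.62 in both sets of libraries.

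Part of this covariation depended on 1 mouse. Of the 36 pairs of subunits, 11 had an r over 0.6 in 21 libraries and 6 without WTEE 10. Gria1 and Grik3 went from 0.45 to -0.40, and Gria2 and Grik4 from 0.64 to 0.01. The 3 pairs among Gria2, Gria3 and Grik2 had an r from 0.78 to 0.94 in 21 libraries and from 0.77 to 0.90 without it.

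**Figure D4:**
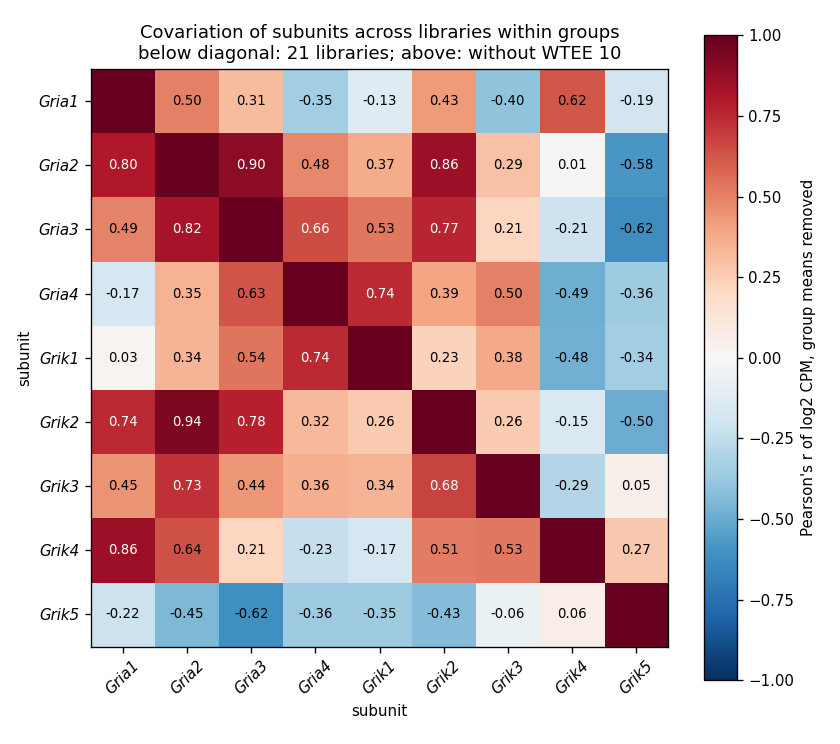
Pearson's r between subunits across libraries on log2 CPM with group means removed, below the diagonal for 21 libraries and above it without WTEE 10 (n = 20). The block of Gria2, Gria3 and Grik2 stayed red on both sides of the diagonal, while Grik4 with Gria2, at 0.64 below, was near 0 above.

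The other genes most like each subunit across the 21 libraries were ranked by the same r among 14996 genes with a mean of at least 50 read pairs. For Gria2 they were Cacna1e (r = 0.98), which encodes the R-type calcium channel, Scn3a (0.98), which encodes a sodium channel, and 1700109K24Rik (0.98). For Gria1 they were Zeb2 (0.95), Gm2115 (0.94) and Arhgef28 (0.94), and for Gria3 they were Cep295 (0.95), Adam22 (0.94) and Atrx (0.92). For Gria4 they were Plcxd2 (0.95), Fgf12 (0.94) and Rgs4 (0.94).

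Among the kainate subunits, Grik2 was most like Cers6 (r = 0.95) and Celf1 (0.95). Grik4 was most like Shisa6 (0.90), an auxiliary protein of AMPA receptors, Stum (0.89) and Homer3 (0.89), a postsynaptic scaffold protein. Grik3 was most like Cadm1 (0.96), Dlc1 (0.94) and Sdk2 (0.94), and Grik1 was most like Tarsl2 (0.85), Rab27b (0.79) and Gcc2 (0.79). Grik5 was most like Agpat1 (0.98), Rtn4rl2 (0.96) and Gal3st3 (0.96). Without WTEE 10 these r were 0.78 or more for all the genes named except Shisa6 (0.70) and Stum (0.65) with Grik4. The libraries share their scaling, and genes ranked highest among 14996 have a high r by selection.

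Subunit levels also varied with the summed markers of hippocampal fields, as a description over 144 pairs of a list and a subunit whose extremes were picked after the values were seen. Grik5 varied with the sum of the CA2 markers Amigo2, Rgs14, Map3k15 and Necab2, with r = 0.82 (0.85 without WTEE 10). It also varied with the summed CA1 markers, with r = 0.82 (0.91 without WTEE 10). Rgs14 and Necab2 made up most of the CA2 sum, at 102 and 129 CPM in WTSH 2, against 19.7 for Amigo2 and 2.4 for Map3k15. Among kept WTSH libraries Map3k15 was highest in WTSH 19, 3.80 CPM, where Grik5 was lowest, 269 CPM. The r of each marker alone was not computed. Gria4 ran against the dentate markers, with r = -0.62 (-0.74 without WTEE 10), and Gria3 against the endothelial markers, with r = -0.85 (-0.81 without it). Grik4, known for its expression in CA3, had r = 0.20 with the CA3 markers in 21 libraries and 0.81 without WTEE 10. Gria2 had r = -0.64 with the choroid plexus markers (-0.58 without it).

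The 3 libraries that the study left out were scaled together with the others for this purpose alone. KDSH 6 lay below the KDSH range for 6 of 9 subunits, with Gria1 at 814 CPM (kept KDSH 858 to 1016), Gria2 at 572 CPM (751 to 866) and Grik2 at 44.8 CPM (52.2 to 57.5). WTSH 4 lay above the WTSH range for 4 subunits and below it for 2, with Gria2 at 842 CPM (kept WTSH 717 to 816) and Gria4 at 57.6 CPM (65.3 to 90.8). WTSH 7 lay above the range for 3 and inside it for 6. Gria1 held 66.6% of the AMPA level in WTSH 4, 64.0% in WTSH 7 and 67.6% in KDSH 6. Gria2 held 21.6%, 21.9% and 18.4%, the last below the kept KDSH libraries (19.8% to 23.3%). In WTSH 4 the Gria4 share, 3.64%, lay below and the Grik2 share, 6.49%, above those of all 21 kept libraries. In KDSH 6 Grik5 held 72.8% of the kainate level, above the kept KDSH libraries (64.2% to 69.8%). The summed striatal markers Drd1, Rgs9 and Adora2a were at 98.2 CPM in WTSH 4, 85.4 in WTSH 7 and 40.3 in KDSH 6. In the kept libraries, scaled without these, that sum ran from 20.9 to 33.5 CPM. The pituitary sum was 412 CPM in KDSH 6 and at most 241 CPM in the kept libraries. The part of these markers in the subunit values was not tested.

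**Figure D5:**
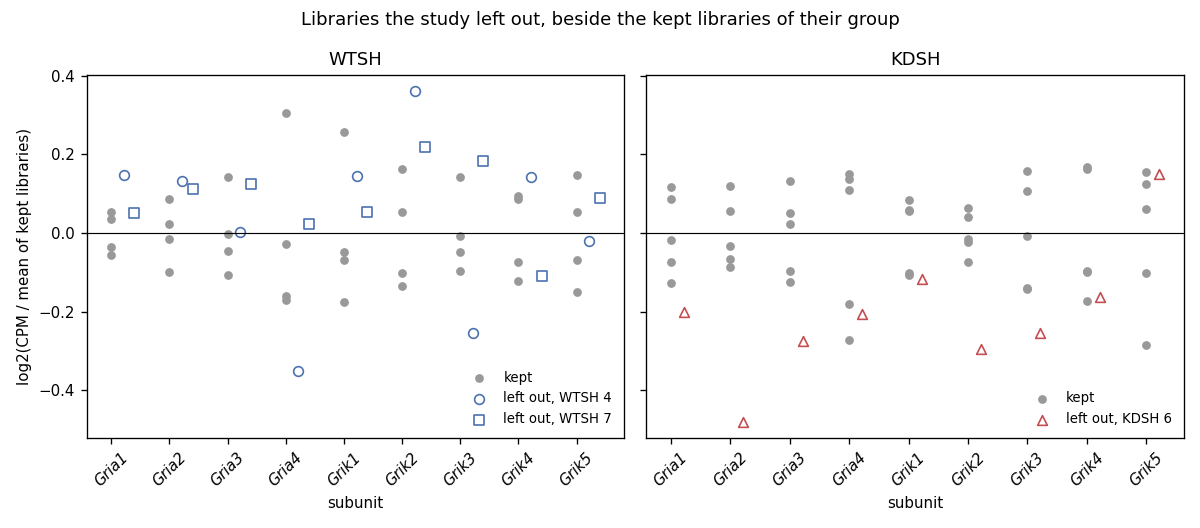
Log2 ratio of each library's CPM to the mean of the kept libraries of its group, for WTSH (left) and KDSH (right), with all 24 libraries scaled together. Grey points are kept libraries and open symbols those left out; KDSH 6 lay lowest for Gria2, 572 CPM against 751 to 866 CPM in the kept KDSH libraries.

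The proteins that assemble, anchor and regulate these receptors were followed in 7 lists of 48 genes, all of them tested. By edgeR 0 of the 48 were called in any comparison. In the contrast of enriched against standard housing with the genotypes averaged, 1 of 48 was higher and 6 were lower at an unadjusted p under 0.05, beside 18.9% of all genes (9.13% lower). The median log2 fold change was -0.07 beside 0.01 over all genes. The higher gene was Syndig1, an AMPA receptor auxiliary protein, at 0.23 ± 0.06 (SE, adjusted p = 0.179 by edgeR). It was at 19.5 ± 2.0 CPM (SD, n = 4) in WTSH, 24.9 ± 2.5 (SD, n = 6) in WTEE, 19.7 ± 1.6 (SD, n = 5) in KDSH and 21.2 ± 1.5 (SD, n = 6) in KDEE, and each WTEE value, from 21.98 CPM up, lay above the highest WTSH value of 21.8 CPM, as groups did for 0.986% of all genes in this comparison. In WTEE against WTSH its log2 fold change was 0.36 with an adjusted p of 0.651 by edgeR.

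Homer1, a postsynaptic scaffold whose short form takes part in downscaling of AMPA receptors, was the gene nearest to a call. It was at 106 ± 23.2 CPM (SD, n = 4) in WTSH, 78.7 ± 11.3 (SD, n = 6) in WTEE, 101.9 ± 24.1 (SD, n = 5) in KDSH and 79.4 ± 3.4 (SD, n = 6) in KDEE. With the genotypes averaged its log2 fold change was -0.40 ± 0.09 (SE) with an adjusted p of 0.174 by edgeR. DESeq2 called it at -0.39 with an adjusted p of 0.0283, in a contrast where it called 0.233% of all genes. The counts add the long and short forms together. Homer1 was at 144.5 CPM in KDSH 8 and at 85.8 to 96.1 CPM in the other KDSH libraries. In WTSH it was at 85.6, 89.9, 113.2 and 135.9 CPM, and its lowest WTEE value was 63.9 CPM, in WTEE 10.

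In the other lists the gene with the smallest p in that contrast was lower with enrichment. The kainate receptor auxiliary Neto1 was at -0.24 ± 0.10 (SE), Nptx1, a pentraxin that clusters AMPA receptors, at -0.24 ± 0.09, and the editing enzyme gene Adar at -0.22 ± 0.11. Grid1, a delta receptor subunit, was at -0.09 ± 0.07, and Abhd6, which limits the surface delivery of AMPA receptors, at -0.06 ± 0.03. Without WTEE 10 these stood at -0.16 for Neto1, -0.19 for Nptx1, -0.14 for Adar, -0.04 for Grid1 and -0.06 for Abhd6, so that this library moved Adar and Grid1 by more than 1.5 times. The adjusted p of these 5 lay between 0.2305 and 0.4403 by edgeR.

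In KDSH against WTSH 0 of 48 had an unadjusted p under 0.05, beside 1% of all genes. With housing averaged, Bdnf, which signals through MSK1, was at -0.15 ± 0.06 (SE) in MSK1 KD mice, the 1 of 48 with an unadjusted p under 0.05 beside 1.9% of all genes, with an adjusted p of 0.9996 by edgeR. Bdnf was at 35.7 ± 1.7 CPM (SD, n = 4) in WTSH and 32.3 ± 0.92 (SD, n = 5) in KDSH. Of the enriched wild-type mice, WTEE 17 was at 47.4 CPM and the other WTEE libraries at 32.3 to 38.2 CPM.

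Promoters were read for the CREB response element because MSK1 acts on CREB. RefSeq promoters on GRCm38.p6, 250 bases before to 50 after the start, were at hand for 6 of the 9 subunits, Gria2, Gria4, Grik2, Grik3, Grik4 and Grik5. The full element TGACGTCA was in 0 of these 6 and in 1.79% of 32851 promoters. The shorter TGACG, or CGTCA on the other strand, was in 1 of the 6, Grik2, and in 20.8% of all. The 30 bases of the Grik2 promoter that end with the match, at chr10:49788754-49788783 on the minus strand, are shown with the match in capitals, because Grik2 had the smallest p of the subunits for housing with the genotypes averaged.
Grik2 promoter: gctccgcggtctcggtctccgccgcCGTCA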

How the data were processed

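Per the labels and the study's methods, poly(A) libraries (TruSeq v2) were sequenced in pairs, aligned with STAR 2.5 to GRCm38 and counted with HTSeq 0.6.1p1 without strand, using unique alignments; FastQC 0.11.3 was the quality check. The deposited values are raw read counts per gene symbol, 1 file per mouse, not normalized by the authors. Rows for unassigned pairs stayed out of library sizes. The study left out 3 libraries for ribosomal RNA content and low correlation, and these are shown apart. Which libraries shared a lane is not given in the sources used here.

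The 21 kept libraries were fitted together in edgeR 4.0.16 (R 4.3.3; 1 coefficient per group, TMM, filterByExpr, quasi-likelihood test, Benjamini-Hochberg adjustment over 20187 genes). DESeq2 1.42.0 was an alternative; both were tested on simulated data. Levels are TMM-scaled CPM, and CPM per kilobase used exon lengths from GENCODE M21 on GRCm38. The study counted reads on a different annotation release, so lengths and exon overlaps may differ from the gene models counted. For correlations log2 CPM had a prior count of 2. Proportions are descriptions, with no test. Alternatives were size factors by the RLE method, no filter, all 24 libraries, no fold threshold, a robust fit, each library left out, and only the groups compared. The subunits, gene lists and tests were chosen with earlier results of these data known. Named list genes were those called or, in each list, the one with the smallest p. For Grik2, 1 of the genes most like it is not reported here.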

Additional observations from a re-analysis of the deposited data

Results flagged for a closer look

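Among 72 sets of subunit values tested within a group (CPM and family proportions, groups of 4 to 6 libraries), 2 held a library whose gap to its nearest neighbour exceeded Dixon's limit, and chance alone flags about 1 in 20. Grik4 in WTEE 10 was at 38.1 CPM, with the other WTEE libraries at 58.5 to 66.3 CPM. Grik1 in WTEE 11 was at 17.8 CPM, with the others at 15.7 to 16.3 CPM. WTEE 10 was also lowest for Gria1, Gria2, Grik2 and Grik3, but its gaps there stayed under the limit.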

How the results depend on the processing

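The count of called subunits stayed at 0 of 9 in all 7 comparisons under each of the alternatives run, and the smallest adjusted p over them was 0.0804, for Grik2 with enrichment under DESeq2 on all 24 libraries, a combination chosen after seeing the data. Of the 48 list genes 1 was called by DESeq2 and 1 by edgeR with all 24 libraries, Homer1 both times (-0.39 and -0.46), in contrasts where they called 0.233% and 0.0757% of all genes. The family proportions moved with length: by the longest transcript Gria1 was 56.5%, Gria2 24.9%, Gria3 13.7%, Grik1 4.52%, Grik2 5.52%, Grik3 9.33% and Grik4 9.94%, and by read pairs without length Gria1 was 46.8%, Gria2 38.6%, Gria3 10.7%, Gria4 3.93%, Grik2 10.4%, Grik3 16.8% and Grik5 57.7%. With all 24 libraries in edgeR, 9 of the 63 subunit fold changes changed sign, each at most 0.0843 in size in the 21 libraries; Gria4 with the genotypes averaged went to 0.0217 by edgeR and 0.0197 by DESeq2. Leaving out 1 library at a time changed the sign of 29 of the 63 in at least 1 fit, each at most 0.0871 in size. Over those fits WTEE against WTSH ran from -0.0841 to 0.00113 for Gria3, -0.116 to 0.0557 for Gria4, -0.113 to 0.0391 for Grik1 and -0.0633 to 0.0360 for Grik5. KDEE against KDSH ran from -0.0366 to 0.0612 for Gria4 and -0.0993 to 0.0125 for Grik5, and the averaged housing contrast from -0.0463 to 0.0410 for Gria4, -0.00529 to 0.0706 for Grik1 and -0.0582 to 0.00442 for Grik5. No paired analysis was possible because the replicate numbers are not shared between groups. The counting error at the shallowest library was at most 4.7% of a subunit's value (Grik1).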
